A study of Mus musculus with 13 samples.

Results

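A set of 6 genes used as marks of Schwann cells was followed through the thymic stroma after irradiation: Sox10, S100b, Gfap, Ngfr, Cdh19 and Erbb3. They were taken by mouse symbol from a table of 53379 genes, and all 6 were present once and passed the filter on low counts, as did 19984 genes in all. The bulk RNA-seq libraries came from CD45- thymic stroma cells, the nonhematopoietic fraction of the thymus, of wild-type C57BL/6 mice aged 2 months. There were 4 libraries at steady state, labelled untreated and named PBS controls in the count table, and 3 libraries each taken 1, 4 or 7 days past total body irradiation at a sublethal dose (TBI, labelled SL-TBI). No transgene or further agent is given for any group, and the labels do not say whether each library is 1 mouse or a pool, so p-values measure the spread between these libraries. The steady-state libraries are named here by their PBS day and replicate.

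Schwann cells are the glia of peripheral nerves, derived from the neural crest. Myelinating Schwann cells wrap single large axons, whereas nonmyelinating ones hold bundles of small axons, which include the autonomic fibres that enter the thymus along blood vessels and septa. Sox10 is the transcription factor that sets and keeps the glial identity of the lineage, and axonal neuregulin acting on the receptor ErbB3 with ErbB2 drives survival and myelination. After nerve injury Schwann cells can leave the myelinating state, lower their myelin genes and raise Ngfr, Gfap and trophic factors.

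The 6 genes lie on 4 chromosomes of GRCm38. Sox10 (ENSMUSG00000033006) lies at chr15:79154913-79164490 on the minus strand, S100b (ENSMUSG00000033208) at chr10:76253853-76261159 on the plus strand and Gfap (ENSMUSG00000020932) at chr11:102887336-102900912 on the minus strand. Ngfr (ENSMUSG00000000120) lies at chr11:95568818-95587735, Cdh19 (ENSMUSG00000047216) at chr1:110888326-110977584 and Erbb3 (ENSMUSG00000018166) at chr10:128567523-128589652, all on the minus strand. Among the exons deposited with the counts, no exon of any of the 6 overlaps an exon of another gene, and reads were counted over exons. RefSeq start sites were held for 3 of the 6 genes (S100b, Gfap and Ngfr). The 250 bases before the start are shown for S100b and Gfap, which were both higher in every day 4 library than in every day 1 library, 5′ to 3′ on the gene's strand (GRCm38.p6). The window of S100b is chr10:76253586-76253835 and that of Gfap is chr11:102897201-102897450. The Gfap window lies inside the gene span given above, so the RefSeq start used is not the outer end of that span.
S100b: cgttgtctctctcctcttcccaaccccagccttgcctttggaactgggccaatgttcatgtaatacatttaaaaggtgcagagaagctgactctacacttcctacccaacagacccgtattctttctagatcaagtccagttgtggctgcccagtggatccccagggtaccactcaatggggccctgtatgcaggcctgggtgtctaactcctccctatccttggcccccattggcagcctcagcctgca
Gfap: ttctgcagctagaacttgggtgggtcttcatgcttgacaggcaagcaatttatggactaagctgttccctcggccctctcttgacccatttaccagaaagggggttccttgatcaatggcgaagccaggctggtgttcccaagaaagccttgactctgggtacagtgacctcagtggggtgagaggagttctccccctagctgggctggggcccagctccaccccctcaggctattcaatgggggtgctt
The SOX motifs ACAAAG and ACAATG were searched on both strands. Neither was found in these windows, nor in that of Ngfr, whereas 8141 of 32536 such windows held one or the other. This says only that these letters are not in the windows.

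The 6 genes were of low abundance in this bulk fraction. Total counts per library ran from 15721866 to 52056896, and no library was at 3 or fewer counts, taken as the floor of detection, for any of the 6. Levels are given as CPM, the counts of a library scaled by its TMM-normalised size, and, to compare genes, as CPM per kilobase of exon (RPKM). Over the 13 libraries, Erbb3 had a mean level of 2.92 ± 1.02 RPKM (SD, n = 13). Cdh19 followed with 0.691 ± 0.390 RPKM, Ngfr with 0.643 ± 0.220 RPKM, S100b with 0.621 ± 0.401 RPKM, Sox10 with 0.412 ± 0.267 RPKM and Gfap with 0.350 ± 0.131 RPKM. Neighbours among the last 5 differed by less than their SDs, and Erbb3 stood above the others in mean level. Against the median of 2.30 RPKM over all genes tested, Erbb3 lay at the 54.0th percentile and the other 5 between the 23.1st (Gfap) and the 32.4th (Cdh19). The lowest count behind any value was 7 reads for S100b in day 1 replicate 2, a level of 0.325 CPM with an exact Poisson 95% interval of 0.131 to 0.670 CPM, which covers counting error only.

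**Figure D1:**
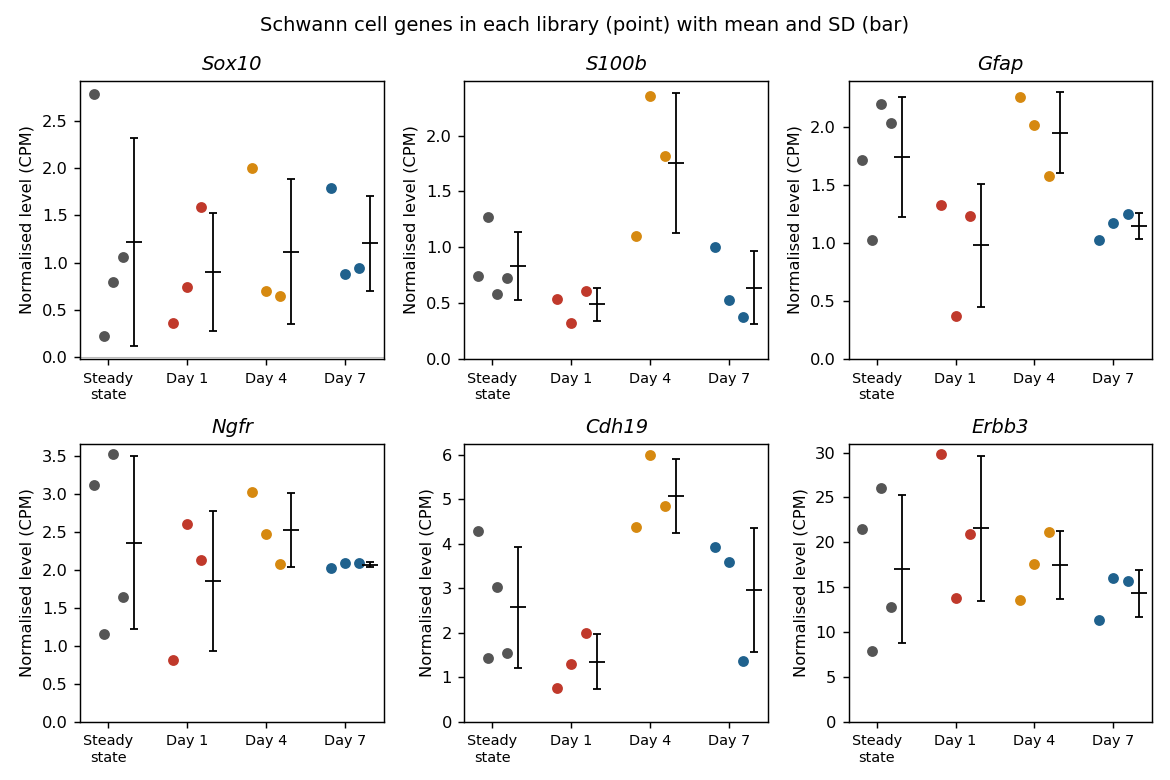
Normalised level in CPM (vertical axes, from 0, a scale for each gene) of the 6 Schwann cell genes in each library (points) at steady state (n = 4) and 1, 4 or 7 days past TBI (n = 3 each), with the mean and SD (bars). S100b and Cdh19 have their highest libraries at day 4, up to 2.35 and 5.99 CPM, while the groups of Sox10, Ngfr and Erbb3 overlap throughout.

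None of the 6 genes passed the edgeR test in any comparison. Between 2 conditions, S100b came closest at day 4 against day 1 and at day 7 against day 4, followed by Cdh19 at day 4 against day 1. Each gene was compared between conditions with the edgeR quasi-likelihood F-test over all 19984 genes, with Benjamini-Hochberg adjustment and a threshold of 0.05, and each fold change below comes from that fit. The test of any difference among the 4 conditions, by the same method, called 6.66% of all genes and 0 of the 6. Its adjusted p was 0.0854 for S100b, 0.142 for Cdh19, 0.355 for Gfap, 0.715 for Erbb3, 0.858 for Ngfr and 0.961 for Sox10. At an unadjusted p under 0.05 it held 24.0% of all genes and 2 of the 6, S100b and Cdh19, and DESeq2 called 18.4% of all genes and those 2. Without day 7 replicate 1, edgeR also called S100b in this test. In bulk samples fewer cells of a type and less RNA per cell cannot be told apart.

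S100b encodes a calcium-binding protein of glia and some other cells. Its level was 0.746 CPM in PBS day 1 replicate 2, 1.28 CPM in PBS day 4 replicate 2, 0.581 CPM in PBS day 7 replicate 1 and 0.726 CPM in PBS day 7 replicate 2. At day 1 the 3 libraries held 0.537, 0.325 and 0.607 CPM, at day 4 they held 1.10, 2.35 and 1.81 CPM, and at day 7 they held 1.01, 0.533 and 0.38 CPM. All 3 day 4 libraries thus lay above all day 1 and all day 7 libraries, and the lowest of them lay below the highest steady-state library. From day 1 to day 4 the log2 fold change was 1.83 (SE 0.496, 95% interval 0.76 to 2.90), 3.55 times on the linear scale, with an edgeR adjusted p of 0.106. From day 4 to day 7 it was -1.46 (SE 0.484, 95% interval -2.51 to -0.42), with an edgeR adjusted p of 0.116. Against steady state, day 4 differed by a log2 fold change of 1.09 (95% interval 0.13 to 2.04, edgeR adjusted p = 0.343). Day 1 against steady state gave -0.74 (95% interval -1.75 to 0.27) and day 7 gave -0.37 (95% interval -1.36 to 0.61). DESeq2 called the first pair of differences, with adjusted p-values of 0.0101 (day 4 against day 1) and 0.0247 (day 7 against day 4). Without day 7 replicate 1, the highest library at day 7, edgeR called S100b lower at day 7 than at day 4 (log2 fold change -1.95, adjusted p = 0.0457).

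Cdh19 encodes a cadherin, a cell adhesion protein that marks the Schwann cell lineage. At steady state its level was 4.30 CPM in PBS day 1 replicate 2, 1.43 CPM in PBS day 4 replicate 2, 3.03 CPM in PBS day 7 replicate 1 and 1.55 CPM in PBS day 7 replicate 2. At day 1 the libraries held 0.764, 1.30 and 1.99 CPM, at day 4 they held 4.39, 5.99 and 4.85 CPM, and at day 7 they held 3.94, 3.59 and 1.36 CPM. The day 4 libraries lay above every other library, by a narrow margin over PBS day 1 replicate 2. Between days 1 and 4 the log2 fold change was 1.90 (SE 0.536, 95% interval 0.75 to 3.06), 3.74 times on the linear scale, with an edgeR adjusted p of 0.119. DESeq2 called this difference with an adjusted p of 0.00867. Day 4 against steady state gave 0.97 (95% interval -0.06 to 2.00, edgeR adjusted p = 0.405), and day 1 against steady state gave -0.93 (95% interval -2.01 to 0.15, edgeR adjusted p = 0.366). Day 7 lay between, with -0.78 against day 4 and 1.13 against day 1 (95% intervals -1.89 to 0.34 and -0.01 to 2.26).

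Gfap encodes the intermediate filament of astrocytes and of nonmyelinating and injured Schwann cells. Its steady-state libraries held 1.71, 1.03, 2.19 and 2.03 CPM in the same order, and its day 1 libraries held 1.33, 0.372 and 1.24 CPM. The libraries held 2.26, 2.02 and 1.57 CPM at day 4 and 1.03, 1.17 and 1.25 CPM at day 7. Day 4 lay above day 1 and day 7 without overlap, and within the range of steady state except for its highest library. The log2 fold change of day 4 against day 1 was 0.97 (SE 0.457, 95% interval -0.02 to 1.95, edgeR adjusted p = 0.377), and that of day 7 against day 4 was -0.76 (95% interval -1.74 to 0.22, edgeR adjusted p = 0.405).

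Sox10, the lineage transcription factor, had an SD of 64.9% of its mean over the 13 libraries, about that of S100b (64.5%), while Ngfr had one of 34.3%. At steady state it held 2.79 CPM in PBS day 1 replicate 2, 0.225 CPM in PBS day 4 replicate 2, 0.796 CPM in PBS day 7 replicate 1 and 1.07 CPM in PBS day 7 replicate 2. The day 1 libraries held 0.368, 0.743 and 1.59 CPM, those of day 4 held 2.00, 0.703 and 0.648 CPM, and those of day 7 held 1.78, 0.881 and 0.949 CPM. Every condition spanned a range that overlapped those of the others. The log2 fold changes ran from -0.42 (day 1 against steady state) to 0.41 (day 7 against day 1), and their 95% intervals were wide. The interval of day 4 against steady state, from -1.78 to 1.42, includes folds from 0.291 to 2.68, so a fall or a rise of Sox10 within these bounds is compatible with these libraries.

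The receptors Ngfr and Erbb3 also overlapped in all comparisons. Ngfr encodes the p75 neurotrophin receptor, and held 3.11, 1.15, 3.53 and 1.65 CPM at steady state and 0.820, 2.60 and 2.14 CPM at day 1. At day 4 it held 3.03, 2.48 and 2.07 CPM, and at day 7 it held 2.03, 2.09 and 2.09 CPM, the tightest group of any of the 6 genes (SD 0.0335 CPM, n = 3). The log2 fold changes of Ngfr ran from -0.36 (day 1 against steady state) to 0.45 (day 4 against day 1, 95% interval -0.60 to 1.49). Erbb3, the neuregulin receptor, held 21.5, 7.88, 26.1 and 12.8 CPM at steady state. It held 29.9, 13.8 and 21.0 CPM at day 1, 13.6, 17.6 and 21.2 CPM at day 4 and 11.3, 16 and 15.7 CPM at day 7. Its mean was highest at day 1 (21.6 ± 8.07 CPM, SD, n = 3) and lowest at day 7 (14.3 ± 2.62 CPM, SD, n = 3), with a log2 fold change of -0.59 between them (95% interval -1.47 to 0.30, edgeR adjusted p = 0.420). Erbb3 was the only one of the 6 with a higher mean at day 1 than at steady state.

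**Figure D2:**
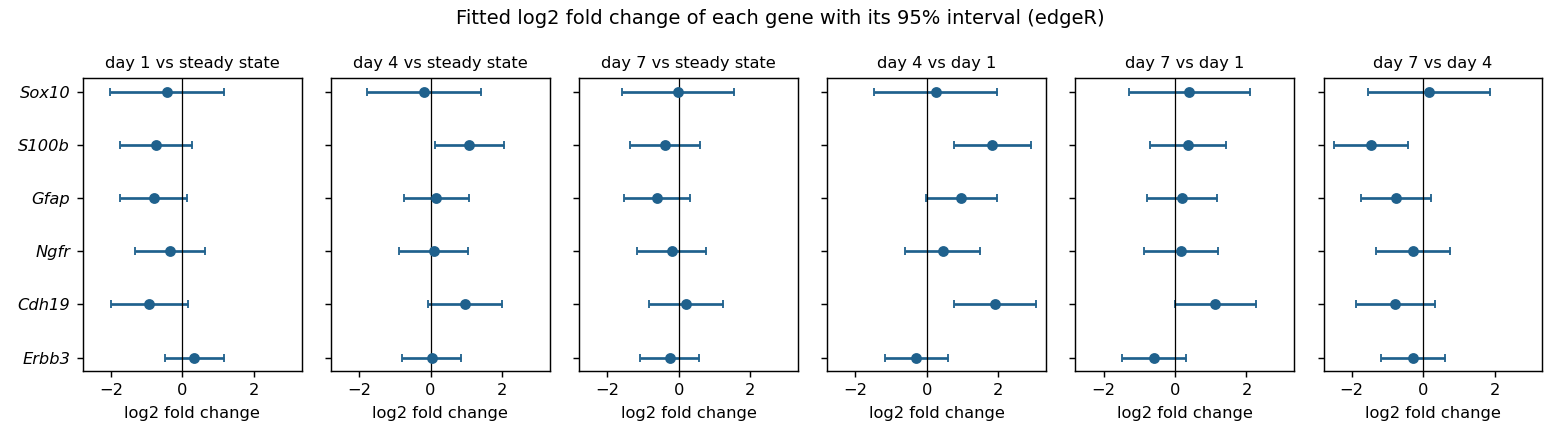
Log2 fold change from the edgeR fit (horizontal axis) of each of the 6 genes (rows) in the 6 comparisons (panels), with bars for the 95% interval. The intervals of S100b (0.76 to 2.90) and Cdh19 (0.75 to 3.06) lie above 0 for day 4 against day 1, and those of Sox10, Gfap, Ngfr and Erbb3 include 0 in every comparison.

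Counted by comparison, the calls among the 6 genes were set beside those among all genes. At day 1 against steady state edgeR called 2.35% of all genes and 0 of the 6, an unadjusted p under 0.05 was reached by 17.2% of all genes and 0 of the 6, and DESeq2 called 7.76% of all genes and 0 of the 6. At day 4 against steady state edgeR called 0.290% and 0 of the 6, the unadjusted p was reached by 13% and 1 of the 6 (S100b), and DESeq2 called 3.23% and 0 of the 6. At day 7 against steady state these were 0.00500%, 13.5% and 5.42% of all genes and 0 of the 6 each time. At day 4 against day 1 edgeR called 1.43% of all genes and 0 of the 6, the unadjusted p was reached by 13.7% and by 2 of the 6, and DESeq2 called 5.11% and the same 2, S100b and Cdh19. At day 7 against day 1 the shares of all genes were 8.13%, 23.9% and 14.7%, with 0 of the 6 each time. At day 7 against day 4 edgeR called 3.90% of all genes and 0 of the 6, the unadjusted p was reached by 18.7% and by 1 of the 6, and DESeq2 called 9.61% and the same 1, S100b.

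Separation of the libraries was counted in the same way. At day 4, 3 of the 6 genes (S100b, Gfap and Cdh19) were higher in every library than in every library of day 1, as were 12.6% of all genes. The same 3 were lower in every library of day 7 than of day 4, as were 14.0% of all genes. Cdh19 alone was higher in every day 4 library than at steady state, a separation found for 6.44% of all genes. None of the 6 was free of overlap at day 1 or day 7 against steady state or at day 7 against day 1, where 15.8%, 7.49% and 27.5% of all genes were free of it in either direction. The median log2 fold change of the 6 was 0.71 for day 4 against day 1 (5 of 6 above 0, all genes -0.10) and -0.52 for day 7 against day 4 (5 of 6 below 0, all genes 0.11). At day 1 against steady state it was -0.58 (5 of 6 below 0, all genes -0.10), and at days 4 and 7 it was 0.12 and -0.22.

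Further Schwann markers described were Mbp, Scn7a and Foxd3. All 3 passed the filter, at levels from 0.0928 RPKM for Foxd3, a neural crest factor listed at 0 counts in day 7 replicate 3, to 25.2 RPKM for Scn7a, a sodium channel gene of nonmyelinating Schwann cells. Mbp, which encodes myelin basic protein, held 76.4, 84.1, 161 and 143.5 CPM at steady state, 87.5, 70.4 and 95.1 CPM at day 1, 138.6, 160 and 173 CPM at day 4 and 119, 162 and 156 CPM at day 7. Its log2 fold change at day 4 against day 1 was 0.90 (SE 0.288, edgeR adjusted p = 0.176). Scn7a held 147, 144 and 137 CPM at day 1 and 243, 260 and 229 CPM at day 4, a log2 fold change of 0.77 (SE 0.247, edgeR adjusted p = 0.177). Mbp and Scn7a each lay higher in every day 4 library than in every day 1 library, as S100b, Gfap, Cdh19 and 12.6% of all genes did. Foxd3, like Sox10, overlapped. The mean levels of Mbp (14.9 RPKM) and Scn7a were above that of each of the 6 genes (at most 2.92 RPKM, Erbb3). Which cells gave the reads of Mbp and Scn7a was not tested. None of these 3 markers passed the edgeR test in any of the 6 comparisons. Between days 1 and 4, 2 of them had an unadjusted p under 0.05 and DESeq2 called 0, and at day 4 against steady state these counts were 1 and 0.

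**Figure D3:**
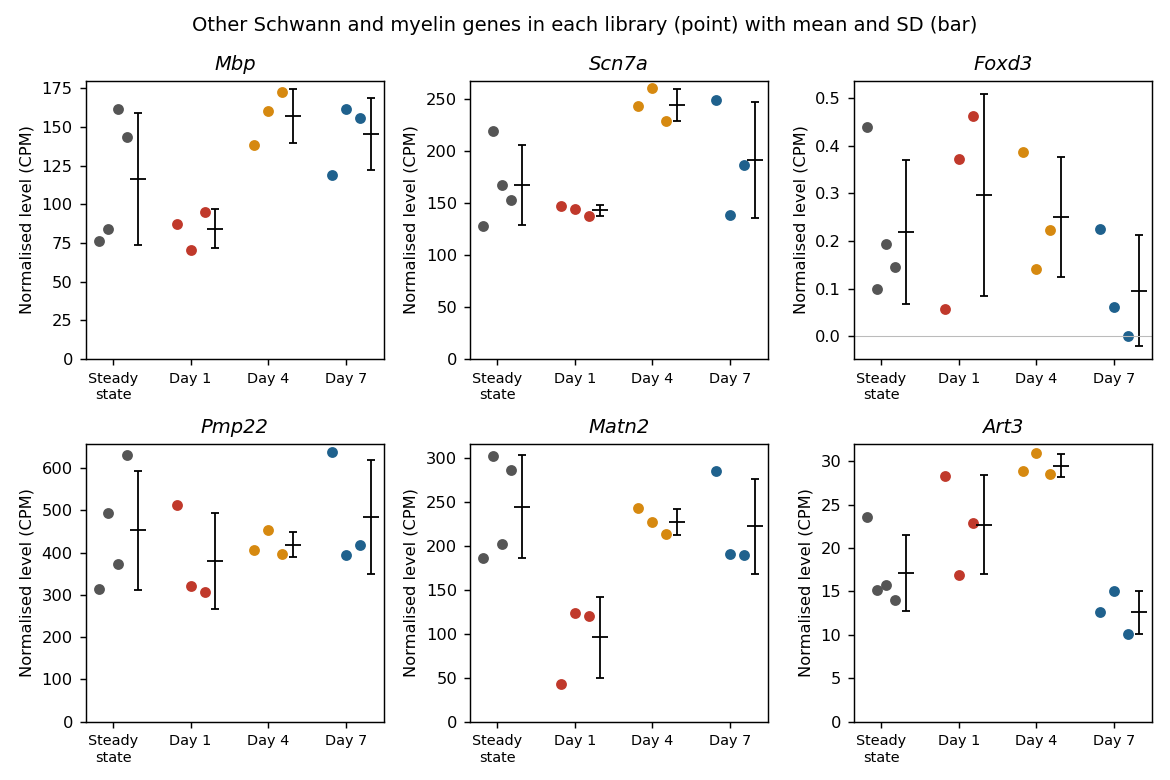
Normalised level in CPM (vertical axes, a scale for each gene) of Mbp, Scn7a and Foxd3, of the myelin gene Pmp22 and of Matn2 and Art3 from the list of nonmyelinating and immature Schwann cells, in each library (points), with mean and SD (bars). Scn7a lies between 229 and 260 CPM in the day 4 libraries and between 137 and 147 CPM at day 1, while Pmp22 overlaps between all conditions.

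Myelin genes as a list held no gene called by edgeR. Of 13 genes 12 were tested, and 9 were positive at day 4 against day 1 (median log2 fold change 0.88, all genes -0.10), 6 of the 12 higher in every library (12.6% of all genes) and 0 called by edgeR (1.43%). At an unadjusted p under 0.05 there were 4 of the 12 (13.7% of all genes), and DESeq2 called 2 (5.11%), Prx and Drp2. At day 7 against day 4, 8 were negative (median -0.67, all genes 0.11). Pmp22 and Cnp, the myelin genes with the highest levels (185 and 30.8 RPKM), are also expressed outside Schwann cells and had log2 fold changes of 0.14 and 0.08 at day 4 against day 1. Chosen after their values were seen, Prx, Drp2 and Ncmap, which encode periaxin, a dystrophin-related protein and a membrane protein of myelinating cells, had log2 fold changes of 1.28 (SE 0.389), 1.75 (SE 0.451) and 2.60 (SE 0.597) at day 4 against steady state. Their edgeR adjusted p-values were 0.211, 0.144 and 0.107. Each was higher in every day 4 library than at steady state, as were 6.44% of all genes. DESeq2 called these 3 of the 12 genes in that comparison, and 3.23% of all genes. Of the 12, 7 were positive and 5 negative there (median log2 fold change 0.41, all genes -0.13).

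Of the list of other genes of nonmyelinating and immature Schwann cells, all 14 were tested, and 1 was called, Art3, a membrane ADP-ribosyltransferase gene. Art3 held 28.9, 31.0 and 28.5 CPM at day 4 and 12.7, 15.0 and 10.1 CPM at day 7, and fell by 1.23 on the log2 scale (SE 0.271, edgeR adjusted p = 0.0280). Its call was lost without day 4 replicate 2 (adjusted p = 0.128), day 4 replicate 3 (0.10), day 7 replicate 2 (0.0562) or day 7 replicate 3 (0.0843). At day 4 against day 1, 10 of the 14 were positive (median log2 fold change 0.25, all genes -0.10) and edgeR called 0 (1.43% of all genes). There 2 had an unadjusted p under 0.05 (13.7%) and 1, Matn2, was called by DESeq2 (5.11%). Which cells gave the reads of this list was not tested. Matn2 and Gpm6b had the highest levels of the list (32.1 and 31.0 RPKM), with Matn2 at 43.2, 124 and 120 CPM at day 1 and between 186 and 303 CPM at steady state (log2 fold change -1.35, edgeR adjusted p = 0.0590, DESeq2 adjusted p = 0.00729).

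Of 12 genes of the repair state of injured Schwann cells 10 were tested, and 9 were negative at day 4 against day 1 (median log2 fold change -0.75). Among these edgeR called 0 (1.43% of all genes), 3 had an unadjusted p under 0.05 (13.7%) and DESeq2 called 1 (5.11%), Tnc. At day 7 against day 1 all 10 tested were negative (median -1.13, all genes 0.05) and edgeR called 1 (8.13% of all genes) and DESeq2 2 (14.7%), Tnc by both and Runx2 by DESeq2. Tnc encodes the matrix protein tenascin-C of many mesenchymal cells. Tnc held 833, 1198 and 946 CPM at day 1 and 178, 117 and 160 CPM at day 7, and fell by 2.71 on the log2 scale (SE 0.508, edgeR adjusted p = 0.00927). Jun and Vim had the highest levels of the list (246 and 226 RPKM), with log2 fold changes of -0.54 and -0.49 at day 4 against day 1 and no call. Shh and Sox2 were too low to test.

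**Figure D4:**
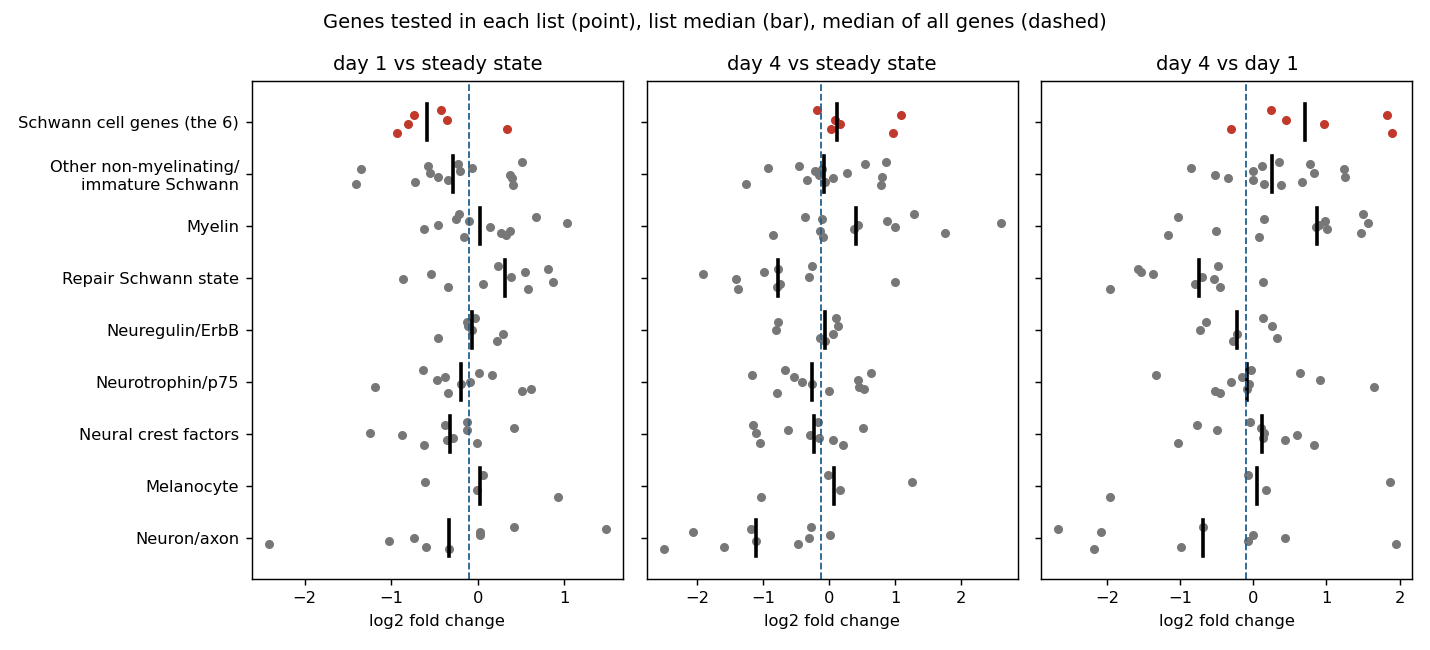
Log2 fold change from the edgeR fit (horizontal axes) of each gene tested (points) in 9 lists (rows), with the median of the list (bar) and of all genes (dashed line), for day 1 and day 4 against steady state and for day 4 against day 1. In the last panel the medians of the 6 genes (0.71) and of the myelin list (0.88) lie to the right of that of all genes (-0.10) and that of the repair list (-0.75) to its left.

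The partners of both receptors held no gene called by edgeR. At day 4 against day 1, 0 of the neuregulin list and 2 of the neurotrophin list had an unadjusted p under 0.05 (13.7% of all genes). DESeq2 called 0 of the first and 2 of the second, Ntf3 and Ntrk2 (5.11% of all genes). In the neuregulin and ErbB list 7 of 9 genes were tested, with median log2 fold changes of -0.06 at days 1 and 4 against steady state. Adam17, a protease that sheds growth factors, and Egfr had its highest levels (21.6 and 21.2 RPKM), Nrg2 and Nrg3 were too low to test, and Erbb4 was listed at 0 counts in 1 library. In the neurotrophin and p75 list all 11 genes were tested, with a median of -0.09 at day 4 against day 1. Maged1, an adaptor that binds the p75 receptor, and the receptor gene Ntrk2 had its highest levels (135 and 7.86 RPKM). Among neural crest factors, with 10 of 10 tested and 0 called by edgeR, Snai2 (14.9 RPKM) and Sox9 (13.7 RPKM) were highest. All 10 were negative at day 7 against steady state (median log2 fold change -0.53, all genes 0.00). Of these, 3 had an unadjusted p under 0.05 (13.5% of all genes). DESeq2 called 1 (5.42% of all genes), Tfap2b, which had a low mean of 0.35 CPM at day 7.

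Marker genes of melanocytes and neurons, which share some of the 6 genes, held no call by edgeR. Of 7 melanocyte genes 4 were tested and 0 called by edgeR in any comparison (1, Dct, by DESeq2 at day 7 against day 1), with summed levels from 14.5 to 35.8 CPM at steady state and from 22.5 to 36.3 CPM at day 4. Kit (2.59 RPKM) and Mlana (1.23 RPKM) were highest, and Tyr, which encodes the enzyme that defines melanin synthesis, was listed at 0 in 9 libraries. Of 9 neuron and axon genes all were tested and 0 called by edgeR, with sums from 27.7 to 55.4 CPM at steady state, from 39.6 to 61.8 CPM at day 1, from 29.2 to 30.4 CPM at day 4 and from 29.2 to 44.4 CPM at day 7. DESeq2 called Tubb3 at day 4 against day 1 (2 of the 9 at an unadjusted p under 0.05), Th and Nefl at day 7 against steady state and Th at day 7 against day 1. Uchl1 (8.01 RPKM) and Tubb3 (4.88 RPKM) were highest, both above the mean level of each of the 6 genes.

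Markers of the main cell types of the libraries also differed between conditions. The summed level of 8 markers of thymic epithelial cells (TECs) ran from 758 to 2551 CPM at steady state, from 1049 to 2130 CPM at day 1, from 2100 to 3789 CPM at day 4 and from 671 to 1242 CPM at day 7. By edgeR none of the 8 was called between days 1 and 4 (3 at an unadjusted p under 0.05, 0 by DESeq2), and 1, Krt5, was lower at day 7 than at day 4. Krt5, Krt8 and Prss16 had the highest mean levels of the 8 (510, 500 and 394 CPM). At day 4 against day 1, 6 of the 8 were positive and 2 negative. Epcam and Aire had means of 81.1 and 8.04 CPM at day 1 and of 49.9 and 3.92 CPM at day 4. At day 4 against steady state 6 of the 8 were positive and 2 negative, Epcam and Aire (log2 fold changes -0.75 and -2.44). DESeq2 called Krt5 and Aire there, in opposite directions. The sum of 8 thymocyte markers ran from 164 to 512 CPM at steady state, from 79.3 to 105 CPM at day 1, from 16.4 to 25.6 CPM at day 4 and from 139.5 to 3083 CPM at day 7, with all 8 higher at day 7 than at day 4 by edgeR and 2, Cd8b1 and Rag1, lower at day 4 than at day 1. The sum of 7 fibroblast markers ran from 10724 CPM (PBS day 1 replicate 2) to 94309 CPM (PBS day 4 replicate 2) at steady state, the latter being the library with the lowest Sox10, Ngfr, Gfap, Cdh19 and Erbb3 of its group and the highest S100b. It ran from 20378 to 62584 CPM at day 1, from 24609 to 35721 CPM at day 4 and from 20015 to 39059 CPM at day 7. The collagen genes Col3a1 and Col1a1 dominated this sum, at 6322 to 63872 CPM and 1121.5 to 26605 CPM at steady state. Pdgfra ran from 659 to 884 CPM there, Dpp4 from 134 to 422 CPM, Ptn from 234 to 536 CPM and Postn from 872 to 1414 CPM. Fibroblast content was not tested. By edgeR 1 fibroblast marker, Postn, was lower at day 1 than at steady state, and 2, Dpp4 and Ptn, were higher at day 7 than at day 1. Ptn held 155, 133 and 157 CPM at day 1 and 259, 415 and 279 CPM at day 4 (log2 fold change 1.10, edgeR adjusted p = 0.137). DESeq2 called Ptn in that comparison, in which the libraries of S100b and Cdh19 were also higher at day 4. The fibroblast markers did not move as 1 there. Of the 7, 4 were positive and 3 negative, with 0 called by edgeR and only Ptn by DESeq2. Between days 1 and 4, the markers of endothelial (5), mural (6), mesothelial (3) and parathyroid (4) cells held 0 calls by edgeR and by DESeq2, with 1, 2, 1 and 0 at an unadjusted p under 0.05. Their sums at day 1 ran from 617 to 1009 CPM, 803 to 1069 CPM, 1037 to 1685 CPM and 265 to 524 CPM, and at day 4 from 609 to 945 CPM, 615 to 820.5 CPM, 1909 to 3382.5 CPM and 240.6 to 1126 CPM. The part of these shifts in the values of the 6 genes was not tested.

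The tag at the end of the column names, whose meaning is not explained in the sources used here, splits the libraries into 3 families that are unevenly spread over the conditions. In the family without a k3 or kk tag, S100b held 1.10 CPM in the day 4 library and a mean of 0.466 CPM in 2 day 1 libraries. In the k3 family it held a mean of 2.08 CPM in 2 day 4 libraries, 0.769 CPM in 2 day 7 libraries and 1.28 CPM in 1 steady-state library. The kk family held 0.726 CPM at steady state and 0.38 CPM at day 7, and the family without either tag 0.663 CPM at steady state. S100b was thus highest in the k3 family in each condition that had k3 libraries. No day 1 library was in the k3 family, so day 4 against day 1 is partly a comparison between families. With the family as a term in the fit, the log2 fold change of S100b at day 4 against day 1 was 1.13 (edgeR adjusted p = 0.322) in place of 1.83, and that of Cdh19 was 1.77 (edgeR adjusted p = 0.139).

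The 6 genes did not vary as 1 unit over the libraries. Pearson's r of log2(CPM + 0.5) over the 13 libraries is given as a description, since libraries share conditions, depth and composition. It was highest for S100b with Cdh19 (0.65), Ngfr with Cdh19 (0.64) and Sox10 with Ngfr (0.62). Sox10 and S100b had an r of -0.11, and Erbb3 ranged from -0.17 with S100b to 0.32 with Gfap. Among the further markers, the closest pairs were S100b with Scn7a (0.76), Sox10 with Foxd3 (0.65) and Gfap with Mbp (0.58). Against the mean log level of each list, r was highest with the myelin list for Cdh19 (0.84) and S100b (0.61), with the neurotrophin and p75 list for Sox10 (0.70), with the TEC markers for Ngfr (0.72) and Gfap (0.62), and with the neuron and axon list for Erbb3 (0.36). With the TEC markers it was 0.77 for Cdh19 and 0.64 for Sox10, and with the endothelial markers 0.70 for Ngfr. With the fibroblast markers, Erbb3, which epithelia also express, had an r of -0.78.

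**Figure D5:**
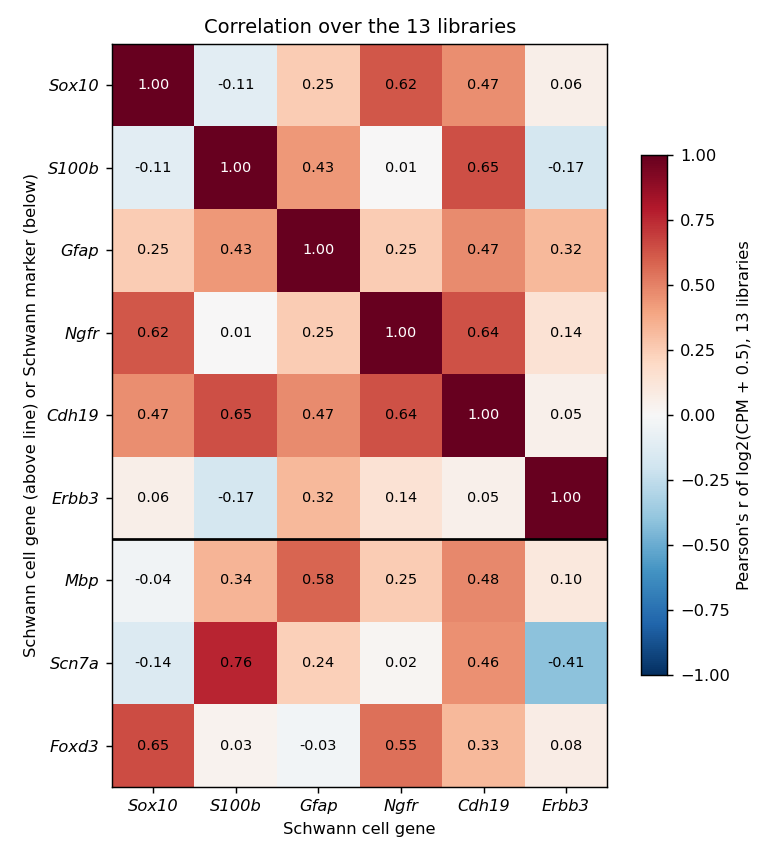
Pearson's r of log2(CPM + 0.5) over the 13 libraries (colour and number) between the 6 genes (columns) and the same 6 genes or 3 further Schwann markers (rows, above and below the line). The highest value outside the diagonal is that of S100b with Scn7a (0.76), and the row of Erbb3 stays between -0.17 and 0.32.

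For each gene the 3 closest of 14580 or 14581 genes with a mean of at least 1 CPM were listed by the same r over the 13 libraries. They were Rai2, Sfrp5 and Gpr157 for Sox10 (0.853, 0.853 and 0.837), Ctsl, Sord and Hvcn1 for S100b (0.930, 0.927 and 0.917), and Gm36283, St3gal6 and Epb41l5 for Gfap (0.892, 0.887 and 0.884). For Ngfr they were Jup, Spon1 and Csmd1 (0.896, 0.887 and 0.887), for Cdh19 they were Inka1, Pla2g7 and Gm14207 (0.935, 0.927 and 0.925), and for Erbb3 they were Apol10b, Hrnr and Krt80 (0.894, 0.883 and 0.877).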

How the data were processed

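Bulk RNA-seq was analysed for 13 libraries of CD45- thymic stroma cells. Per the labels and the study's methods, the authors used Trimmomatic 0.38 for trimming, STAR 2.7.0e for alignment to GRCm38.p5 and featureCounts 1.6.3 at its defaults for counts per gene, without strand, and the deposited values are whole-number counts without normalization. Deposited gene lengths served for RPKM. Replicates 1 to 3 after TBI come from the labels, and the steady-state columns were mapped to the group only.

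The fit used edgeR 4.0.16 (R 4.3.3) with TMM scaling, filterByExpr() by condition, all 13 libraries in 1 fit and the quasi-likelihood F-test. The Benjamini-Hochberg adjusted p-value was taken over 19984 genes. SEs came from the log2 fold change and its F, and 95% intervals from the t distribution at the fit's degrees of freedom. DESeq2 1.42.0 was an alternative. Total counts had a median of 44078906, and intervals on counts cover counting error only. The steps were tested on simulated data.

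The 6 genes and all lists were chosen with earlier results of these data known. The rule for names took the 6 genes, genes called in each list (at most 4), the 2 with the highest RPKM in each list, and the 3 closest by Pearson's r. Some genes of the lists are not reported here and were left out of the list counts and medians. Other cells' markers were given as sums and counts, with those called by edgeR named for the comparisons described. Genes named because DESeq2 called them were chosen after their values were seen. The alternatives were RLE scaling, no filter, at least 10 counts in every library, only the conditions compared, the replicate block and each library left out. The tag family was added after seeing the data. Sequences came from RefSeq (GRCm38.p6). The closest pair of libraries differed by far more than sampling noise.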

Additional observations from a re-analysis of the deposited data

How the results depend on the processing

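Most differences of the 6 genes were small against their error. Over 36 log2 fold changes (6 genes in 6 comparisons) and 684 values under the alternatives, 4 passed the threshold and 35 changed sign, all 35 for genes whose log2 fold change was at most 0.42 in size and was not called. With DESeq2, 2 of the 6 genes were called at day 4 against day 1, 1 at day 7 against day 4 and 2 in the test of any difference, in place of 0 each. With each library left out, the count ran from 0 to 1 for day 7 against day 4 and for any difference, where it was 1 without day 7 replicate 1, and was 0 in the other comparisons. The filter of 10 counts in every library left out Sox10, S100b and Gfap. Over all genes, the alternatives called from 228 to 1399 genes at day 1 against steady state (469 as reported), from 19 to 645 at day 4 (58), from 0 to 1081 at day 7 (1), from 56 to 960 at day 4 against day 1 (285), from 472 to 2940 at day 7 against day 1 (1625), from 0 to 1919 at day 7 against day 4 (779) and from 677 to 3665 in the test of any difference (1330). The highest count was that of DESeq2 each time, and the cause was not tested. With the replicate block, run on the days after TBI, 0 of the 6 genes were called, as were 56, 640 and 0 of all genes at day 4 against day 1, day 7 against day 1 and day 7 against day 4, and the call of Art3 was lost (adjusted p = 0.125). Same-numbered libraries had mean correlations of -0.669, -0.141 and 0.054 in these comparisons, against 0.266, 0.089 and -0.043 for other pairs. These are correlations of levels centred within each condition, so they cannot decide whether the numbers mark paired libraries. Sox10, S100b and Gfap rested on 9, 7 and 8 reads in their lowest libraries, where depth limits the precision of the value.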
